A study of Mus musculus with 12 samples.

Results

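Tanycyte genes were followed here in the arcuate nucleus (ARC), the part of the mediobasal hypothalamus that borders the base of the third ventricle. The 7 genes were Rax, Lhx2, Dio2, Crym, Gpr50, Vim and Nes, chosen by name as genes known to be expressed in tanycytes, and all 7 were found among the 16640 genes of the deposited table. The choice was made with earlier results of these data known, so counts of the 7 beside shares of all genes are descriptions. Bulk RNA sequencing was performed on the ARC of female mice that were 27 weeks old, on a mixed CD-1;129P2 background. Control females (Esr1 fl/fl) had both Esr1 alleles flanked by loxP sites, Esr1 being the gene that encodes oestrogen receptor α (ERα). Mutant females (Esr1 Nkx2-1Cre) had the same floxed alleles together with a Cre recombinase driven by Nkx2-1, a design that removes Esr1 from cells with an Nkx2-1 history, which in the basal hypothalamus includes more cell types than neurons. Females of each genotype ate either chow throughout or, for the last 17 weeks, a high-fat diet (HFD), which left 3 control chow, 4 mutant chow, 2 control HFD and 3 mutant HFD libraries. The question put to these genes was whether their level in the ARC differed with the loss of ERα, with the diet or with both.

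Tanycytes are elongated ependymoglial cells that line the floor and lower walls of the third ventricle and send a single long process into the ARC or the median eminence. They contact both the cerebrospinal fluid and the fenestrated vessels of the median eminence, they control access of blood-borne signals to the ARC, and they are the main site in the hypothalamus where thyroxine is converted to the active hormone triiodothyronine. They also keep features of neural progenitors in the adult brain. The genes below fall into those roles: transcription factors that set tanycyte identity (Rax, Lhx2), proteins that handle thyroid hormone (Dio2, Crym), an orphan receptor (Gpr50), and intermediate filaments of radial glia and progenitors (Vim, Nes).

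All 7 genes are protein coding, and positions are given on GRCm38 (mm10). Lhx2, a LIM homeobox gene, lies on the plus strand at chr2:38339281-38369733. Dio2, the type 2 iodothyronine deiodinase that makes triiodothyronine, lies on the minus strand at chr12:90724552-90738438. Crym, a cytosolic protein that binds triiodothyronine, lies on the minus strand at chr7:120186380-120202111. Gpr50, a G-protein-coupled receptor related to the melatonin receptors but without affinity for melatonin, lies on the plus strand at chrX:71663667-71669257. Vim (vimentin) and Nes (nestin) lie on the plus strand at chr2:13573927-13582826 and at chr3:87971078-87980451. Annotated non-coding genes on the other strand overlap Rax (Raxos1), Lhx2 (Gm27197 and Gm13584) and Dio2 (Gm26512). None of these 4 has a row in the table, and whether reads were counted by strand is not given in the sources used here, so those reads could not be told apart.

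The promoters of Dio2, Nes and Lhx2 are printed as examples from the most closely covarying pairs described further on. Each window holds 235 bases, from 250 to 16 bases upstream of the start in RefSeq (GRCm38.p6), written from 5′ to 3′ on the gene's own strand. Of the 7 genes, 5 had an entry, and Rax and Crym did not. Capitals mark the motifs found, which were TGACGTCA (the cAMP response element) and TATAAA (the TATA box) in Dio2, and GGGCGG or its reverse complement (the GC box) in Nes and Lhx2. The windows are chr12:90739054-90739288 on the minus strand for Dio2, chr3:87970843-87971077 on the plus strand for Nes, and chr2:38339031-38339265 on the plus strand for Lhx2, the upstream one of its 2 windows.
Dio2: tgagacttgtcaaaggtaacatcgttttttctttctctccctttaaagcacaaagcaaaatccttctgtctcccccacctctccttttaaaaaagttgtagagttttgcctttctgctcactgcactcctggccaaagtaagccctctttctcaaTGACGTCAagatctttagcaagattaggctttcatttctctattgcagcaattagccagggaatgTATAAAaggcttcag
Nes: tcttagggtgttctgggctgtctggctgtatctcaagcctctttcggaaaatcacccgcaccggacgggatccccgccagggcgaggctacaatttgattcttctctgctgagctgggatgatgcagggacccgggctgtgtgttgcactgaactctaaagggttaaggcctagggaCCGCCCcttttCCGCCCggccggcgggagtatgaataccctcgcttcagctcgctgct
Lhx2: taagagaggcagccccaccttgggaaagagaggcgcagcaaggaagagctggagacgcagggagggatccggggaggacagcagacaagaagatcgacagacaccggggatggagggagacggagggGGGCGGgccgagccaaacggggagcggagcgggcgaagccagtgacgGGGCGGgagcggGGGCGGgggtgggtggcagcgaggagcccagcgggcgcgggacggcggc
The Dio2 window held TGACGTCA at bases 95 to 88 upstream of the start and TATAAA at bases 30 to 25. The Nes window held GC boxes at bases 73 to 68 and 62 to 57, and the Lhx2 window at bases 123 to 118, 76 to 71 and 64 to 59. Both strands were searched, and no match overlapped a match of another motif. Over 32851 RefSeq windows of this length, TGACGTCA was present in 1.37%, TATAAA in 11.9% and GGGCGG in 30.6%. The palindromic oestrogen response element, GGTCA and TGACC spaced by 3 bases, was present in 0.0578% of windows and in 0 of the 6 windows of the 5 genes, and Vim was the other gene with a TATAAA match. A match of letters in these windows is a description and shows no binding.

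Values are the deposited abundance signal, in which the authors corrected for gene length and sequencing depth, and its scale is close to that of a TPM value. Sequencing depth per library is not known from these values. Column totals ran from 922172 to 1254999, from 201 to 1768 genes were listed at 0, most of them in mutant chow replicate 3, and Spearman correlations over genes within groups (0.908 to 0.967, 13 pairs) overlapped those between groups (0.892 to 0.970, 53 pairs). Nothing in the labels says whether a library came from 1 animal or from pooled tissue, so the spread between libraries may be partly technical.

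Esr1 was checked first against the genotype labels. On chow its signal was 17.8, 7.29 and 19.8 in controls and 6.05, 3.15, 1.93 and 1.65 in mutants, so the mutant mean was 21.4% of the control mean with no overlap. On HFD the signal was 15.3 and 22.4 in controls and 10.7, 16.6 and 11.9 in the libraries labelled mutant, whose mean was 69.4% of the control mean with overlap. Esr1 therefore did not separate the genotypes on HFD, and every genotype comparison on HFD, and every diet comparison in mutants, rests on the label of those 3 libraries. The value sums over the whole gene, and the floxed segment is only part of it.

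The homeobox genes were both present in every library. Rax, the retina and anterior neural fold homeobox gene, lies on the minus strand at chr18:65928277-65939787. Its signal stood at 58.9, 146 and 64.3 in control chow, at 73.8, 41.1, 79.6 and 69.3 in mutant chow, at 23.6 and 74.1 in control HFD, and at 47.0, 66.2 and 56.3 in the libraries labelled mutant HFD. The single value of 146 in control chow replicate 2 was far above the other 11 libraries, the lowest value was in control HFD replicate 1, and all 4 groups overlapped. Rax was the most variable of the 7 genes, with a coefficient of variation of 44.5% over 12 libraries. Lhx2 stood at 36.8, 39.9 and 52.1 in control chow, at 37.4, 36.3, 56.5 and 33.3 in mutant chow, at 24.5 and 37.1 in control HFD, and at 27.9, 30.8 and 29.0 in the libraries labelled mutant HFD. Those 3 were all below the 4 mutant chow libraries, whereas the control groups overlapped, and Lhx2 was the least variable gene of the set (coefficient of variation 25.5%).

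Between Dio2 and Crym, the thyroid hormone genes of the set, Dio2 had the wider gap between diets. Its signal was 19.5, 39.2 and 43.2 in control chow, 27.6, 23.6, 34.9 and 36.3 in mutant chow, 14.6 and 14.02 in control HFD, and 8.13, 16.1 and 31.3 in the libraries labelled mutant HFD. Both control HFD values lay below all control chow values, and in mutants only replicate 3 on HFD reached the chow range. The HFD mean was 42.2% of the chow mean in controls and 60.5% in mutants. Crym stood at 56.1, 56.9 and 41.9 in control chow, at 58.7, 48.6, 39.7 and 39.2 in mutant chow, at 21.4 and 51.0 in control HFD, and at 30.8, 23.2 and 45.1 in the libraries labelled mutant HFD. The 3 lowest Crym values were on HFD, but 1 library of each HFD group lay within the chow range.

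Gpr50, the orphan receptor, stood at 138, 119 and 144 in control chow, at 87.7, 86.9, 193 and 118 in mutant chow, at 80.8 and 152 in control HFD, and at 70.4, 113 and 83.9 in the libraries labelled mutant HFD. Mutant chow replicate 3 was the highest library, and control chow lay above all 3 values labelled mutant HFD, and the other pairs of groups overlapped. The HFD mean was 86.9% of the chow mean in controls and 73.3% in mutants, and in controls only Nes (91.4%) had a smaller gap.

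Of the intermediate filaments, Vim was the most abundant gene of the set per length (mean 190.6 over 12 libraries) and Nes the least (15.9). Vim stood at 203, 301 and 201 in control chow, at 138, 168, 323 and 203 in mutant chow, at 159 and 190 in control HFD, and at 127, 154 and 119 in the libraries labelled mutant HFD. Both control HFD values lay below all control chow values and above all values labelled mutant HFD. Nes stood at 12.9, 16.2 and 18.5 in control chow, at 13.96, 17.4, 25.2 and 21.1 in mutant chow, at 13.5 and 15.5 in control HFD, and at 8.89, 12.5 and 15.4 in the libraries labelled mutant HFD. The highest Nes values were in mutant chow, and the groups overlapped.

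**Figure D1:**
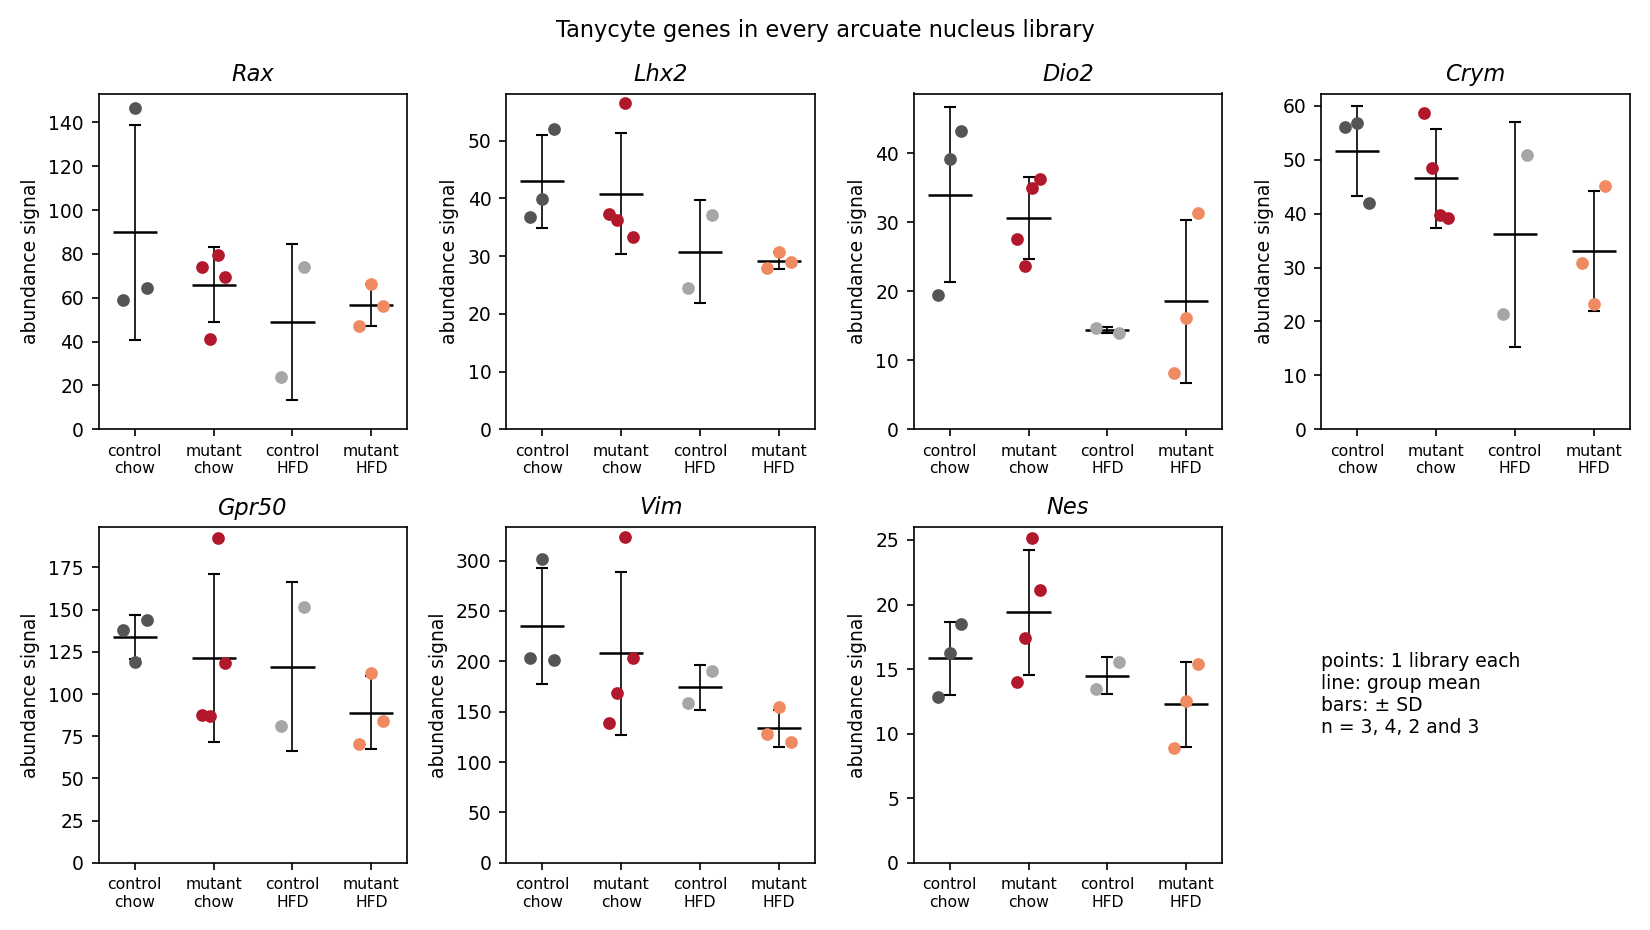
Abundance signal (y axis, from 0) of the 7 tanycyte genes in control chow, mutant chow, control HFD and mutant HFD libraries (x axis), with 1 point per library, a line at the group mean and bars of ± SD (n = 3, 4, 2 and 3). The HFD means lie below the chow means of the same genotype for each gene, while points of the groups overlap in most panels.

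Control chow had the highest group mean for 6 of the 7 genes, and mutant chow had it for Nes. With the group means of each gene placed in order, 21 neighbouring pairs were compared, and in 2 of them the means differed by more than the larger SD of the pair. These were mutant chow (30.6 ± 5.99, SD, n = 4) over mutant HFD (18.5 ± 11.7, n = 3) for Dio2, where the ranges overlapped, and control HFD (174.4 ± 22.3, n = 2) over mutant HFD (133.7 ± 18.3, n = 3) for Vim, where they did not. For the other pairs the order of neighbours was within the spread between libraries.

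In mutants, the 7 genes were all lower on HFD than on chow in the fitted means, and none passed the threshold after adjustment over 15801 genes. The comparison asks how HFD and chow differ in females labelled mutant. Esr1 itself differed within it, as the mean of the libraries labelled mutant HFD was 409% of the mutant chow mean (log2 fold change 1.84 ± 0.41, SE, adjusted p = 0.455, limma), and the part of that in the values below was not tested. The median log2 fold change of the 7 was −0.51, beside −0.02 over all genes, and the 7 of 7 below 0 stand beside 53.1% of all genes below 0. At an adjusted p under 0.05 (limma), 0 of 7 were called, against 0.019% of all genes. At an unadjusted p under 0.05, 3 of 7 were called, all lower, against 3.94% of all genes in that direction and 5.37% in either. These were Nes, with a log2 fold change of −0.62 ± 0.26 (SE, 95% interval −1.18 to −0.06, adjusted p = 0.905), Dio2 at −0.86 ± 0.38 (−1.69 to −0.03, adjusted p = 0.916) and Vim at −0.57 ± 0.26 (−1.13 to −0.01, adjusted p = 0.916). Lhx2 was −0.44 ± 0.22 (interval −0.92 to 0.04) and was the only one of the 7 without overlap between the groups, beside 4.88% of all genes that did not overlap and were lower. Crym (−0.51 ± 0.30), Gpr50 (−0.39 ± 0.29) and Rax (−0.19 ± 0.39) had intervals that included 0. The count of 3 rested on single libraries: it was 0 without mutant chow replicate 3, where Gpr50, Vim, Lhx2 and Nes were at their highest, 0 without mutant HFD replicate 1, and 1 without mutant chow replicate 4, without mutant HFD replicate 2 or without either control HFD library, which enter through the shared spread. Dio2 was −1.32 without mutant HFD replicate 3 and −0.41 without mutant HFD replicate 1, and Vim was −0.33 without mutant chow replicate 3. The direction stayed below 0 for all 7 genes in each of these fits.

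In controls, the 7 genes were again all below 0 for HFD against chow, with a median log2 fold change of −0.48 beside −0.01 over all genes and 50.7% of all genes below 0. This comparison and the one in mutants share no library. At an adjusted p under 0.05, 0 of 7 were called, against 0% of all genes, and all 7 had an adjusted p of 0.998 (limma). Dio2 was the 1 gene with an unadjusted p under 0.05, at −1.11 ± 0.46 (SE, 95% interval −2.11 to −0.12), against 2.1% of all genes called lower and 3.54% in either direction. That count of 1 was 0 without control chow replicate 2, control chow replicate 3 or control HFD replicate 1, and 3 without control HFD replicate 2. Rax was −0.95 ± 0.47 (interval −1.98 to 0.07), Crym −0.61 ± 0.36, Lhx2 −0.48 ± 0.26, Vim −0.41 ± 0.31, Gpr50 −0.27 ± 0.35 and Nes −0.11 ± 0.31. Dio2 and Vim did not overlap between the groups, 2 of 7 beside 7.76% of all genes that did not overlap and were lower. The control HFD group held 2 libraries, and they differed from each other. Control HFD replicate 1 held the lowest Rax, Lhx2 and Crym values of all 12 libraries, and the median of the 7 was −0.15 without it and −0.77 without replicate 2. Without replicate 1, 6 of 7 genes remained below 0 and Gpr50 was 0.18. Nes was at 0.00 without control chow replicate 3, and at 0.0250 when every column was rescaled to the same total, which put the median of all genes at 0.12.

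The diet difference was also averaged over both genotypes, a contrast chosen after the values were seen. The 7 genes were all below 0, with a median of −0.49 beside −0.02 over all genes and 53.5% of all genes below 0. Again 0 of 7 passed the adjusted threshold, against 0% of all genes, with adjusted p-values from 0.823 to 0.890 (limma). Dio2 was −0.99 ± 0.30 (SE, 95% interval −1.64 to −0.34), Lhx2 −0.46 ± 0.17 (−0.83 to −0.09), Vim −0.49 ± 0.20 (−0.92 to −0.05) and Crym −0.56 ± 0.23 (−1.07 to −0.06). These 4 of 7 had an unadjusted p under 0.05 and were lower, against 3.69% of all genes in that direction and 5.29% in either. For Rax (−0.57 ± 0.31), Nes (−0.37 ± 0.20) and Gpr50 (−0.33 ± 0.23) the interval included 0. The count of 4 was 1 without control HFD replicate 1, 2 without control chow replicate 2 or without mutant HFD replicate 1, and 6 without control HFD replicate 2.

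**Figure D2:**
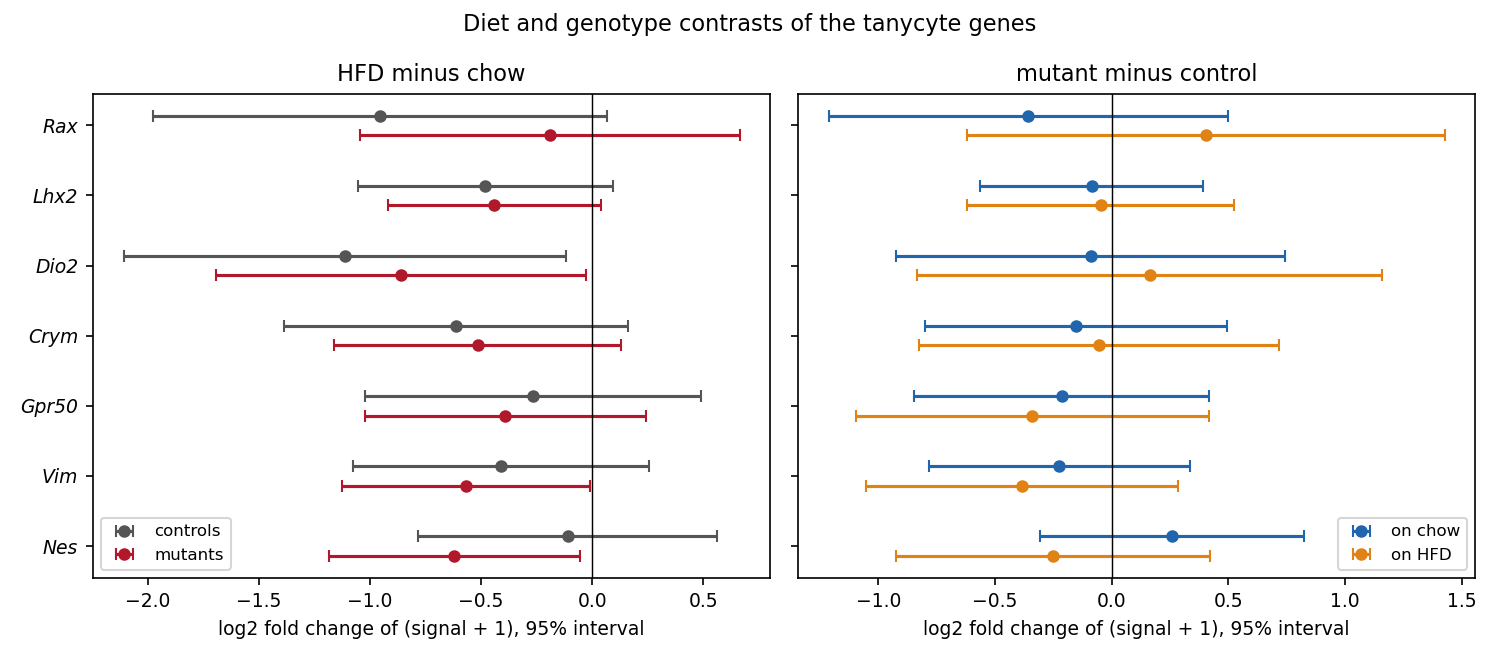
Log2 fold change of (signal + 1) with its 95% interval (x axis) for each of the 7 genes (y axis), with HFD minus chow on the left (controls grey, mutants red) and mutant minus control on the right (chow blue, HFD orange). All points on the left lie below 0, from −1.11 for Dio2 in controls to −0.11 for Nes in controls, and every interval on the right includes 0.

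The genotype comparison on chow asks whether loss of ERα in the Nkx2-1 lineage goes with a difference in these genes, and 0 of 7 passed at the adjusted threshold (limma, adjusted p from 0.982 to 0.995) or at an unadjusted p under 0.05. Over all genes 0.019% were called at the adjusted threshold and 4.34% without adjustment. In this comparison 6 of 7 genes were below 0, beside 47.8% of all genes, with a median of −0.15 beside 0.01, and 0 of 7 were without overlap, beside 4.51% of all genes. Nes was the gene above 0, at 0.26 ± 0.26 (SE), and the largest difference below 0 was Rax at −0.36 ± 0.39, and was 0.0556 without control chow replicate 2, the library at 146. Lhx2 (−0.09 ± 0.22, 95% interval −0.56 to 0.39) and Dio2 (−0.09 ± 0.38, interval −0.92 to 0.74) were nearest to 0, and their sign turned to 0.00801 and 0.00477 with columns rescaled to one total, which put the median of all genes at 0.10.

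On HFD, mutants against controls gave 0 of 7 calls at the adjusted threshold, where 0.00633% of all genes were called, and 0 of 7 without adjustment, where 2.21% were. Here 5 of 7 genes were below 0 beside 51.5% of all genes, with a median of −0.05 beside −0.01. Vim was −0.38 ± 0.31 and its groups did not overlap, 1 of 7 beside 8.46% of all genes that did not overlap and were lower. Rax (0.40 ± 0.47) and Dio2 (0.16 ± 0.46) were above 0. The interaction, the difference between the diet effects of mutants and controls, gave 0 of 7 calls at the adjusted threshold (0% of all genes) and 0 of 7 without adjustment (3.44%). The largest estimates were 0.76 ± 0.61 for Rax and −0.51 ± 0.40 for Nes, and 3 of 7 were below 0 beside 52.7% of all genes. A difference between the genotypes in the diet response was thus not detected for any of the 7 genes, and the intervals were wide, from −0.57 to 2.09 for Rax and from −1.39 to 0.37 for Nes.

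The diet difference ran through particular libraries. When each gene was ranked over the 12 libraries, mutant HFD replicate 1 was among the lowest 3 for 7 of 7 genes and control HFD replicate 1 for 5 of 7. At the other end, control chow replicate 2 and mutant chow replicate 3 were each among the highest 3 for 5 of 7 genes. The mean of the 7 genes' z-scores was 0.15, 0.98 and 0.72 in control chow, 0.00, −0.14, 1.30 and 0.37 in mutant chow, −1.27 and 0.22 in control HFD, and −1.36, −0.61 and −0.37 in the libraries labelled mutant HFD. All 3 of the last were below the 4 mutant chow libraries, while control HFD replicate 2 lay within the control chow range.

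Across the 12 libraries Pearson's r was above 0 in all 21 pairs of the 7 genes (0.281 to 0.797, median 0.573). The share of such pairs over all genes was not computed, so covariation cannot be called particular to the set. The mean z-score of the 7 genes also varied with the average level of other lists described below. Its r ran from −0.86 (pan-neuronal) to 0.72 (further tanycyte genes), with 0.71 for pars tuberalis and pituitary genes and 0.68 for ARC neuron markers. By a permutation test with adjustment over the 21 pairs, 4 pairs passed by Pearson's r and 5 by Spearman's rho, and 9 had an unadjusted p under 0.05 by either. Gpr50 and Vim had r = 0.797 (permutation p = 0.00189, adjusted p = 0.0132) and rho = 0.790 (p = 0.00366, adjusted p = 0.0384), and r was 0.629 without the 2 libraries farthest from the Gpr50 median. Lhx2 and Gpr50 had r = 0.796 (p = 0.00142, adjusted p = 0.0132) and rho = 0.832 (p = 0.00122, adjusted p = 0.0256), with 0.645 without the 2 farthest. Dio2 and Nes had r = 0.794 (p = 0.00173, adjusted p = 0.0132) and rho = 0.741 (p = 0.0081, adjusted p = 0.0423), with 0.712 without the 2 farthest. Lhx2 and Vim passed by r alone (r = 0.721, p = 0.00767, adjusted p = 0.0403, and rho = 0.678, p = 0.0185, adjusted p = 0.0648), with 0.616 without the 2 farthest. Rax passed by rho alone, with Lhx2 (0.741, adjusted p = 0.0423) and with Gpr50 (0.727, adjusted p = 0.0423). No label names a batch, so no value within a batch can be given. The number of pairs passing by r ran from 0 without mutant HFD replicate 1 and 1 without mutant chow replicate 3 to 7 without control chow replicate 1 or mutant HFD replicate 3.

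Part of this covariation was between groups and part within them. When each library was taken as its deviation from its group mean, the median r was 0.441, and the closest pairs were Dio2 and Nes (0.812), Lhx2 and Gpr50 (0.793) and Gpr50 and Vim (0.714). Crym, the triiodothyronine-binding protein, had r within groups of −0.00187 against Gpr50, −0.203 against Vim and −0.0754 against Nes. Against the others it was 0.0606 for Dio2, 0.111 for Lhx2 and 0.462 for Rax. In 1 library, mutant chow replicate 3, the intermediate filaments and Gpr50 were high and Crym was among the lower values of its group.

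**Figure D3:**
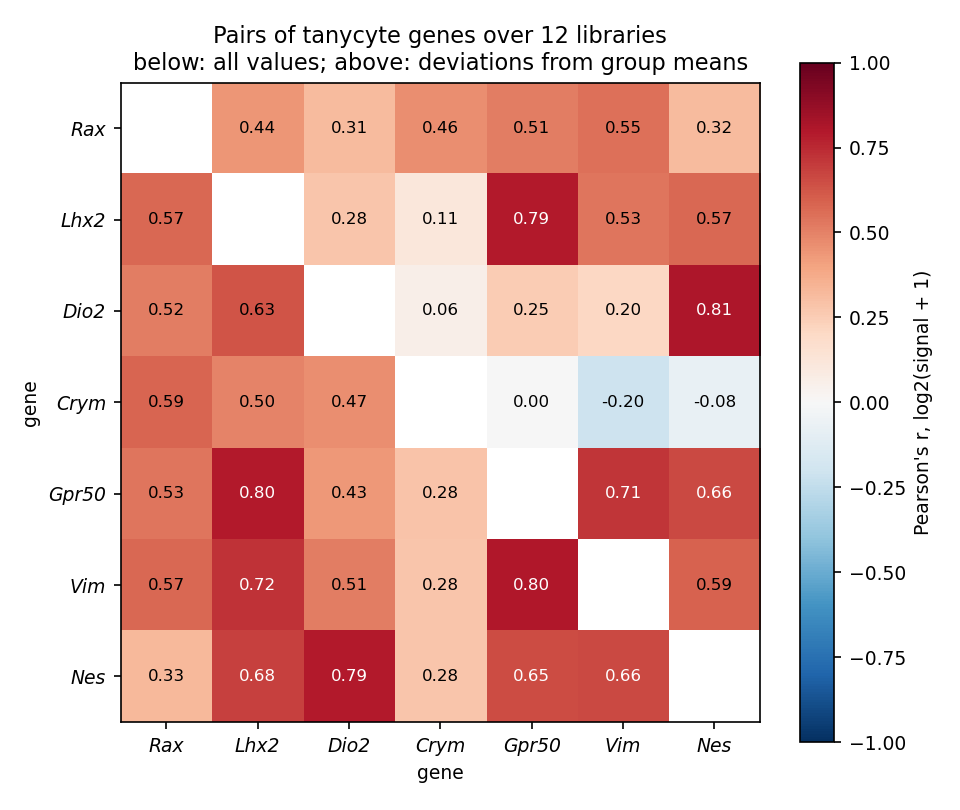
Pearson's r of log2(signal + 1) for each pair of the 7 genes (both axes list the genes) over 12 libraries, with all values below the diagonal and deviations from group means above it (colour scale −1 to 1). Every value below the diagonal is above 0. Above it the Crym row and column hold the lowest values, down to −0.20 with Vim, but also 0.46 with Rax.

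Genes outside the set were ranked by their likeness to each member over the same 12 libraries, among 12133 genes with a mean of at least 5, as a description. The ranking carries no test and says nothing of shared function. The 3 most like Dio2 were Ccn2 (r = 0.958), Rlbp1 (0.902) and Ifi27l2a (0.869). Ccn2, a secreted matricellular protein, had means of 26.3 in control chow, 23.7 in mutant chow, 12.8 in control HFD and 17.9 in mutant HFD, the same order of the groups as Dio2, and Rlbp1 encodes a retinaldehyde-binding protein of retinal glia. For Rax they were Wdr61 (0.948), Zar1 (0.937) and Pigf (0.937), and for Lhx2 Cars2 (0.955), Creb3l2 (0.949) and Ubxn4 (0.939). For Crym they were P3h3 (0.873), Ccdc134 (0.836) and Meis3 (0.820), the lowest values of any member. Msn, encoding the membrane-cytoskeleton linker moesin, was among the 3 most like both Gpr50 (0.875, after Pcf11 at 0.886 and before Zfp433 at 0.870) and Vim (0.901, with Smpd1 at 0.913 and Pdia4 at 0.901). For Nes they were Acvr1c (0.926), Fndc3c1 (0.918) and Tle3 (0.889). Among the 10 most like the mean z-score of the set were Tbx3 (0.923), Stom (0.920), Msn (0.901), Cep89 (0.887), Tgfbi (0.881), Il11ra1 (0.874), Acer3 (0.867), Jam3 (0.866) and 3110082I17Rik (0.865). Tbx3, a transcription factor of arcuate neurons and of tanycytes, had means of 61.6, 64.2, 49.4 and 40.3 in control chow, mutant chow, control HFD and mutant HFD.

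A further list of 14 genes named for tanycytes, from matrix and membrane proteins to Sox factors, was measured in the same fits, and all 14 passed the filter on low values. On HFD 12 of 14 were below 0 in mutants and 8 of 14 in controls, beside 53.1% and 50.7% of all genes. The medians were −0.27 and −0.13, beside −0.02 and −0.01 over all genes. At an unadjusted p under 0.05, 0 of 14 were called in either, against 5.37% and 3.54% of all genes. For genotype 10 of 14 were below 0 on chow (median −0.04) and 12 of 14 on HFD (median −0.21). All genes stood at 47.8% (median 0.01) and 51.5% (median −0.01). The interaction was below 0 for 12 of 14, beside 52.7% of all genes. None of the 14 passed after adjustment in any comparison, and 1 had an unadjusted p under 0.05. This was Vcan, the matrix proteoglycan versican, in the genotype comparison on chow, where 4.34% of all genes had such a p. Its log2 fold change was −0.82 ± 0.35 (SE, limma, adjusted p = 0.982), with means of 13.8 ± 4.35 in control chow and 7.53 ± 2.89 in mutant chow. The most abundant were Ptn, Col23a1 and Sox2. Ptn, the secreted growth factor pleiotrophin, had means of 498.7 ± 169 in control chow, 447.4 ± 88.1 in mutant chow, 413 ± 149 in control HFD and 333.2 ± 10.5 in the libraries labelled mutant HFD, where it did not overlap with mutant chow. That was 1 of 14 without overlap and lower, beside 4.88% of all genes. Col23a1, a transmembrane collagen, had 106.4 ± 17, 108.2 ± 39.6, 118.2 ± 67.2 and 75.5 ± 11.9 in the same order. Sox2, a factor shared by tanycytes, astrocytes and progenitors, had 79.8 ± 19.9, 85.5 ± 11.5, 81.0 ± 7.95 and 85.9 ± 1.68, so that its HFD means were not below its chow means.

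Genes of thyroid hormone handling, the pathway in which Dio2 and Crym act, did not follow Dio2. Of 15 genes listed (transporters, deiodinases, receptors, the releasing hormone and its receptor, and known target genes), 14 had a row and passed the filter, Dio1 being the one without. On HFD 6 of 14 were below 0 in mutants (median 0.06) and 7 of 14 in controls (median 0.01), beside 53.1% and 50.7% of all genes. For genotype 6 of 14 were below 0 on either diet, beside 47.8% of all genes on chow and 51.5% on HFD. None passed after adjustment in any comparison. Trhr, the receptor of thyrotropin-releasing hormone, stood at 5.74, 3.89 and 4.41 in control chow, at 9.61, 9.71, 15.7 and 9.14 in mutant chow, at 7.53 and 5.49 in control HFD, and at 6.54, 6.41 and 5.56 in the libraries labelled mutant HFD. The 4 mutant chow libraries were above all others. For genotype on chow Trhr was the 1 of 14 without overlap, beside 4.51% of all genes in either direction. For diet in mutants it was the 1 of 14 without overlap and lower, beside 4.88% of all genes. Its log2 fold change was 1.06 ± 0.27 for genotype on chow (SE, adjusted p = 0.865), −0.72 ± 0.27 for diet in mutants (adjusted p = 0.841) and −1.12 ± 0.42 for the interaction (adjusted p = 0.999). Each of the 3 had an unadjusted p under 0.05 (limma), against 4.34%, 5.37% and 3.44% of all genes in the same order. All of them share the mutant chow libraries. The most abundant of the list were Thra, the thyroid hormone receptor α (means 321.6 ± 38.4, 350.8 ± 64.7, 355.5 ± 57.8 and 368 ± 28.6 in control chow, mutant chow, control HFD and mutant HFD), and 2 genes known to respond to thyroid hormone. Nrgn had means of 121.5 ± 42.5, 164.3 ± 99.3, 178.3 ± 132 and 232.9 ± 95.3, and Thrsp of 81.8 ± 27.1, 84.4 ± 23.1, 68.5 ± 26.8 and 65.02 ± 2.3 in the same order.

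In bulk tissue, fewer tanycytes and less RNA of these genes per tanycyte cannot be told apart. Markers of neighbouring cells were therefore placed beside the 7 genes, whose summed signal ran from 525.8 to 719.2 in control chow, 421.9 to 751.5 in mutant chow, 337.1 to 533.6 in control HFD and 320.5 to 415.7 in mutant HFD. A list of 7 ARC neuron markers, all above 0 in every library, was lower on HFD on average. Its mean log2 difference was −0.52 in mutants and −0.45 in controls, next to −0.51 and −0.56 for the tanycyte genes. In controls the HFD mean was 49.0% of the chow mean for Agrp, 63.5% for Npy, 64.8% for Th and 87.9% for Tac2. It was 97.3% for Pomc, 99.1% for Pdyn and 126% for Ghrh, so the control difference did not run through the whole list. In mutants it ran from 45.1% (Npy) to 88.3% (Ghrh). The summed signal of the list ran from 3025 to 6546 in control chow, 3487 to 7171 in mutant chow, 1766 to 5495 in control HFD and 3098 to 3738 in mutant HFD. Genes of the pars tuberalis and pituitary, which lie just under the median eminence, were lower as a list average (−0.55 in mutants and −1.53 in controls). Of these, 4 of 5 were above 0 in every library and Prl was at 0 in 7. In mutants the HFD mean was 107% of the chow mean for Tshb and 88.5% for Cga. It was 67.4% for Pitx1, 51.8% for Lhx3 and 28.7% for Prl. In controls the 4 genes other than Prl ran from 25.7% (Cga) to 66.9% (Pitx1). The summed signal of this list ran from 527.9 to 5624 in control chow, 1074 to 2009 in mutant chow, 114.6 to 1447 in control HFD and 873.0 to 1755 in mutant HFD. The control HFD libraries differed widely in both lists. Replicate 1 and replicate 2 had 65.9 and 365.7 for Agrp, 127.2 and 604.8 for Tac2, and 82.0 and 1018 for Cga. Control HFD replicate 1 held the lower sum of both lists, and the sums of replicate 2 lay within the control chow ranges. Endothelial markers differed on average by −0.33 in mutants and −0.39 in controls (7 of 7 above 0 in every library). Their sums were 110.6 to 163.5 in control chow, 97.4 to 237.4 in mutant chow, 64.95 to 125.5 in control HFD and 92.4 to 127.7 in mutant HFD. In controls the HFD mean of Cldn5 was 155% of the chow mean, and the other endothelial genes ran from 53.1% (Ly6c1) to 86.5% (Pecam1). In mutants the list ran from 47.5% (Cldn5) to 93.3% (Flt1).

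The remaining lists included some that were higher on HFD, some that differed in sign between genotypes, and fibroblast and meningeal genes, which were lower in both. Pan-neuronal genes were higher on HFD by 0.25 in mutants and 0.36 in controls (sums 1018 to 1284, 1041 to 1386, 1073 to 1708 and 1243 to 1487 in control chow, mutant chow, control HFD and mutant HFD), and so were genes of the ventromedial and other neighbouring nuclei by 0.38 and 0.40 (215.5 to 1202, 311.3 to 4934, 478.6 to 611.9 and 1509 to 3731). For these nuclei the mean sum in controls was 653.7 on chow and 545.3 on HFD, so there only the log2 average was higher. Ciliated ependymal cells, the nearest neighbours of tanycytes on the ventricle wall, differed by −0.12 in mutants and 0.34 in controls, with sums of 260.6 to 383.2, 170.9 to 367.0, 280.2 to 405.4 and 217.6 to 255.8. Astrocyte genes, several of which tanycytes share, differed by 0.06 and 0.16, with sums of 1078 to 1627, 1200 to 1876, 1128 to 1955 and 1241 to 2007. Mural genes differed by 0.02 and −0.46, fibroblast and meningeal genes by −0.23 and −0.44 (7 of 7 above 0 in every library), microglial genes by −0.36 and 0.15, and oligodendrocyte genes by −0.67 and 0.37. Choroid plexus genes summed to between 28.1 and 75.2 in 11 libraries and to 2185 in control HFD replicate 1, the library with the lowest Rax, Lhx2 and Crym, and the controls-only values without that library are those given above. The part of ARC neurons, pars tuberalis, vessels, fibroblasts, neighbouring nuclei and choroid plexus in the difference of the tanycyte genes was not tested.

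**Figure D4:**
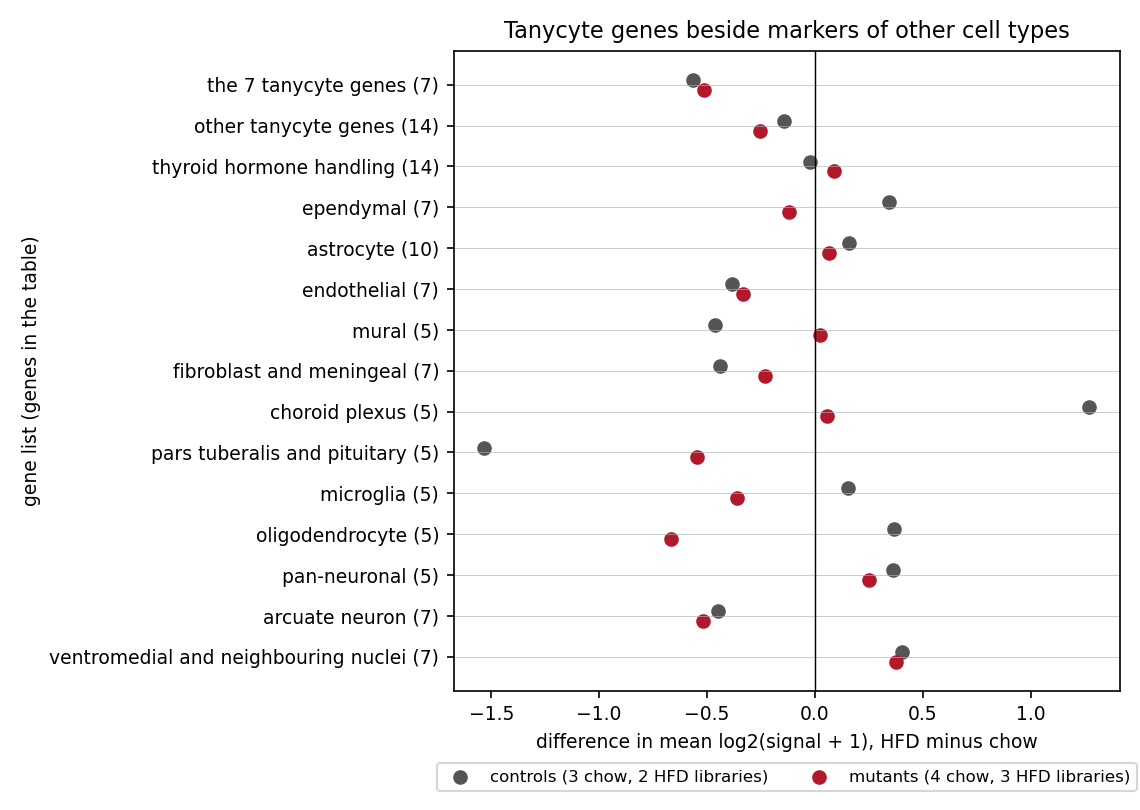
Difference in mean log2(signal + 1) between HFD and chow (x axis) for the 7 tanycyte genes and 14 other lists (y axis, number of genes in the table in parentheses), in controls (grey, 3 chow and 2 HFD libraries) and mutants (red, 4 chow and 3 HFD libraries). The tanycyte genes (−0.56 and −0.51) lie near the ARC neuron list (−0.45 and −0.52). In controls, the ARC neuron and pars tuberalis points average HFD libraries that differed widely, with replicate 1 the lower. The choroid plexus point of the controls (1.27) comes from 1 library.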

How the data were processed

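ARC tissue was microdissected, and libraries were prepared with the NEBNext Ultra II kit and sequenced on a NovaSeq instrument. Reads were mapped by the authors to mm10 transcripts (Kallisto, gene mode) and tested with Sleuth. The deposited abundance signal is their length- and depth-normalised value. How it was scaled between libraries, the tool versions, the annotation, any filter on genes and strand handling are not given in the sources used here. Depth is therefore unknown, and no counting error is given. All columns were matched to labels (0 unmapped), and 16633 of 16640 genes matched a GENCODE M21 symbol.

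Genes with a signal of at least 1 in at least 2 libraries were kept (15801). The log2(signal + 1) values were fitted with limma 3.58.1 in R 4.3.3 (mean-variance trend, 1 mean per group, 12 libraries), two-sided, with Benjamini-Hochberg adjustment over all genes tested at 0.05. Fold changes are on the log2(signal + 1) scale and understate low genes. Pairs were tested with 100000 permutations (scipy 1.17.1). The limma fit was run on simulated data with 200 genes changed in mutant chow, for the genotype comparison on chow only. The other comparisons and the pair tests were not simulated. The members and lists were chosen with earlier results of these data known. Named genes were the 7 members, the 3 genes most like each and the 10 most like their mean, Esr1, and list genes with an unadjusted p under 0.05 or among the 3 most abundant. Some genes that this rule names are not reported here. Replicates are numbered in order of deposition and pair nothing. Alternatives covered pseudocount, filters, scaling, weights, a residual component and each library left out.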

Additional observations from a re-analysis of the deposited data

Results flagged for a closer look

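Of 17 genes checked for a library that stood apart in a group of 4, which only mutant chow offers, 1 did so. Trhr, the receptor of thyrotropin-releasing hormone, was 15.7 in mutant chow replicate 3, against 9.14 to 9.71 in the other 3 libraries of that group. Its gap to the nearest library was 0.912 of the group's range, above the critical value of 0.829. Chance alone passes that value in about 1 in 20 groups, so 1 flag among 17 genes is near that rate. The same library held the most genes listed at 0 (1768) and the highest Lhx2, Gpr50, Vim and Nes values of the 12 libraries. The other 3 mutant chow libraries were also above all control chow values of Trhr (3.89 to 5.74). Over all genes, 4.51% did not overlap between these groups in either direction.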

How the results depend on the processing

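Across 21 alternatives, no gene of the 7 passed the adjusted threshold. Of 868 gene values, 364 could not move because the alternative left the fold change fixed, and 32 of the rest turned sign. These 32 were called neither before nor after, and the cause was not tested. With columns rescaled to one total, Lhx2 was 0.00801 and Dio2 0.00477 for genotype on chow, Nes was 0.0250 for diet in controls, and Lhx2 was −0.13 and Crym −0.0701 for the interaction. That rescaling put the median of all genes at 0.10, 0.12 and −0.18 in these comparisons, and the genes of the set below 0 numbered 4, 6 and 5 of 7, beside 37%, 37% and 66.4% of all genes. The count at an unadjusted p under 0.05 for diet in mutants was 1 in place of 3 without the trend or with only the groups compared, and for diet in controls 0 in place of 1 with rescaled columns or array weights. Array weights gave −0.12 for Crym and 0.17 for Gpr50 in the interaction. With 1 library left out in turn, genotype on chow ran from −0.25 to 0.0589 for Lhx2, −0.44 to 0.12 for Dio2 and −0.59 to 0.0556 for Rax. Genotype on HFD ran from −0.34 to 0.24 for Lhx2, −0.29 to 0.62 for Dio2, −0.40 to 1.21 for Rax, −0.66 to 0.55 for Crym and −0.79 to 0.11 for Gpr50. Diet in controls ran from −0.24 to 0.00135 for Nes and −0.72 to 0.18 for Gpr50. The interaction ran from −0.25 to 0.33 for Lhx2, −0.20 to 0.71 for Dio2, −0.0429 to 1.57 for Rax, −0.35 to 0.0755 for Vim, −0.51 to 0.71 for Crym and −0.58 to 0.32 for Gpr50. The number of gene pairs passing by Pearson's r ran from 0 to 7 in the same way. The counts of list genes at the adjusted threshold were 0 in each of these fits and say nothing of stability. Leaving out a control HFD library leaves 1, which is assumed to vary like the other groups. No paired analysis was possible because the sample labels number no replicates and nothing ties the numbers in the column names across groups. The fit of only the groups compared could not be made for the interaction or the averaged diet contrast, which use all 4 groups. The small groups and unknown depth limit what differences could be detected.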
